A study of Mus musculus with 26 samples.

Results

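Lacrimal glands of 20-week-old mice were compared with those of 4-week-old mice, the oldest against the youngest age of a time course of autoimmune gland disease. The comparison rests on 9 of the 26 arrays of the series, 5 at 20 weeks and 4 at 4 weeks, each placed by the age in its title. All mice were males of the strain C57BL/6.NOD-Aec1Aec2, a C57BL/6 background into which the autoimmunity regions Aec1 (Idd3) and Aec2 (Idd5) of the NOD mouse were bred. The labels name no treatment. In the study's description 20 weeks is the age at which secretion declines, and 4 weeks precedes disease. No other strain was analysed here, so that ageing of the gland from weaning to adulthood and its disease cannot be told apart. Each array is called a biological replicate, and the labels do not say if that means 1 animal or several pooled. P-values therefore measure the spread between samples, which for the gene tests was estimated over all 26 arrays.

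The lacrimal gland makes the watery layer of tears. Its acinar cells, which fill the ducts with protein and fluid, depend on a dense endoplasmic reticulum and on energy from mitochondria, and plasma cells in its stroma make immunoglobulin A (IgA) that the epithelium carries into tears. In Sjögren's syndrome, in which immunity turns on these glands and the salivary glands, lymphocytes and macrophages gather in the gland, major histocompatibility complex (MHC) class II and complement genes are active, and secretion declines. Gland growth and puberty, which in male mice changes lacrimal gene expression strongly, also fall between these ages.

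Values are log2 expression, so that a difference of 1 is a 2-fold change, and differences are 20 weeks minus 4 weeks each with its standard error (SE) from the linear model. A level under 4.04, within 1 log2 unit of the median probe set, is near background, and a change of a gene whose mean at either age is that low is a lower bound. In whole gland tissue fewer cells of a type and less RNA per cell cannot be told apart. Of the 9 arrays, 20 weeks replicate 1 stood apart. The SD of its log2 values was 1.36, against 1.93 to 2.12 on the other 20-week arrays and 1.78 to 2.07 on the 4-week arrays, and its strongest signals were compressed, with 1% of its probe sets above 8.75, against 11.02 to 11.41 and 10.37 to 11.3. It correlated with the other 20-week arrays at a median r of 0.869, and every other array of the 9 correlated with its own age at 0.956 or more. Counts, lists and rises are therefore also given without it. For actin, whose control probe sets read both ends of the transcript, the gap between 3' and 5' signal, larger where RNA is less intact, was 3.89 ± 0.889 at 20 weeks and 2.90 ± 0.916 at 4 weeks (SD, n = 5 and 4), a difference of 0.991 that an exact two-sided permutation test did not separate from the spread (p = 0.159, adjusted p = 0.405 over 3 array measures; the smallest p that the 126 splits allow is 0.00794). For Gapdh, the other such control, the gap was 2.54 ± 0.399 at 20 weeks and 1.62 ± 1.63 at 4 weeks. This difference of 0.92 was not separated from the spread either (exact permutation p = 0.27, adjusted p = 0.405). Most lacrimal product genes were strongly expressed in both groups, with Pip, a prolactin-induced tear protein, at 14.59 at 20 weeks and 14.62 at 4 weeks, and Car6, a secreted carbonic anhydrase, at 13.47 and 13.94 in the same order. Prol1, which is on the salivary gland list too, averaged 6.37 at 20 weeks and 10.09 at 4 weeks and was not called (log2 change -3.72, SE 1.93, limma adjusted p = 0.38). Of the 8 product genes kept 7 had a negative difference, with a median of -0.19, and 2 without 20 weeks replicate 1, with a median of 0.33. The mean level of 8 kept salivary gland genes ranged from 5.76 to 9.30 per array at 20 weeks and from 5.30 to 12.36 at 4 weeks, and a fit with salivary and adipose levels as covariates gave 168 calls, 78 higher and 90 lower.

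Expression differed between 20 and 4 weeks for 273 of 12376 genes, which is 2.21% of those tested (limma, Benjamini-Hochberg adjusted p under 0.05). Among these, 111 genes were higher (0.897%) and 162 lower (1.31%) at 20 weeks. The median change over all genes was 0.0108, and 242 of the genes called differed by at least 2-fold. Called or not, 196 genes (1.58%) had every 20-week array above every 4-week array, and 326 (2.63%) had the reverse.

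The balance of rises and falls depended on 20 weeks replicate 1. Without it 515 genes were higher (4.16%) and 207 lower (1.67%), so that 71.3% of the calls were rises, against 40.7% with all arrays. All 111 genes called higher with all arrays were called without this array too, and 107 of them had a larger difference there. Of the 162 genes called lower, 141 were still called without it, and 112 of the 162 had a smaller difference. Fitted on the 9 arrays alone, with no other age to estimate the spread, 4 genes were called, Clu higher and 5530400C23Rik, Slc16a12 and Txn2 lower (1225 genes had an unadjusted p under 0.05). The 8 arrays left without 20 weeks replicate 1 gave 498 calls by themselves, 421 higher and 77 lower. Leaving out any other of the 9 arrays gave between 73 calls, without 4 weeks replicate 2, and 411, without 4 weeks replicate 3. The remaining counts were 75 without 4 weeks replicate 4, 103, 126, 157 and 405 without 20 weeks replicates 4, 3, 2 and 5, and 182 without 4 weeks replicate 1. Leaving out each of the 9 arrays in turn, 55 genes were called every time, 30 higher and 25 lower.

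**Figure D1:**
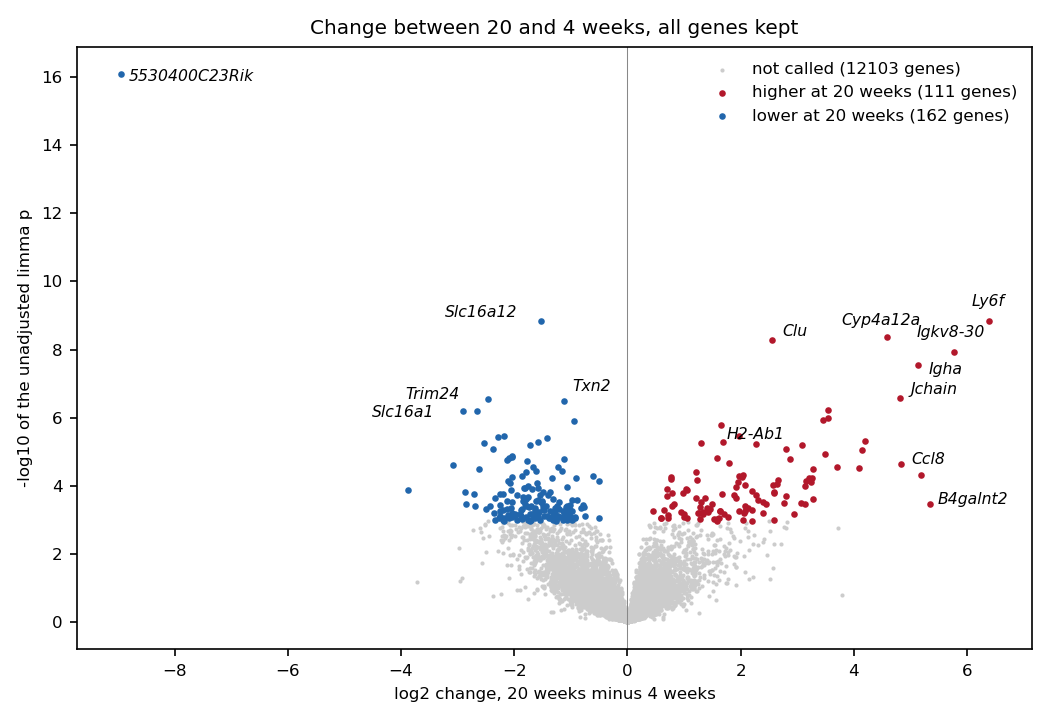
Log2 change, 20 weeks minus 4 weeks (horizontal axis), against -log10 of the unadjusted limma p (vertical axis) for 12376 genes, with the 111 genes called higher in red and the 162 called lower in blue. 5530400C23Rik stands alone at -8.95, and the higher genes reach 6.38 for Ly6f.

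Antibody genes of the IgA type were among the largest rises at 20 weeks. Igha, which encodes the constant region of the IgA heavy chain, had 9.66, 11.14, 10.57, 12.35 and 13.1 on the 5 arrays at 20 weeks, against 6.63, 6.26, 7.06 and 4.96 on the 4 arrays at 4 weeks, a 35.2-fold rise (log2 change 5.14, SE 0.62, adjusted p = 5.1e-05, limma). Every 20-week array lay above every 4-week array, and 20 weeks replicate 1 was the lowest of its age. Jchain, whose product links IgA units into the dimers that epithelium exports, had 5.35, 8.08, 8.49, 9.43 and 10.49 at 20 weeks, against 3.22, 4.13, 3.44 and 3.41 at 4 weeks, where it was near background (log2 change 4.82, SE 0.67, adjusted p = 0.00038). The groups again did not overlap. Without replicate 1 the changes of Igha and Jchain were 5.56 and 5.57 (adjusted p = 3.5e-06 and 2.5e-07).

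Light chain genes rose too. Igkv8-30, a kappa variable segment, had 6.37 to 11.03 at 20 weeks with a median of 10.23, against 2.50 to 4.85 at 4 weeks (log2 change 5.78, SE 0.67, adjusted p = 2.4e-05). Its probe set can bind related segments, so the value may stand for several of them. Igk had 3.24, 8.23, 9.28, 10.28 and 9.62 at 20 weeks, against 2.91, 2.95, 3.00 and 2.93 at 4 weeks, a change of 5.18 (SE 1.04, adjusted p = 0.011). On 20 weeks replicate 1 it lay just above the highest 4-week array, and on the other arrays of that age far above it. Both Igkv8-30 and Igk were near background at 4 weeks, and without replicate 1 they changed by 6.58 and 6.41.

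Ighm, the heavy chain of IgM, rose by a size that depended on the probe set. It had 4.78, 4.07, 7.85, 5.40 and 6.82 at 20 weeks, against 3.66, 3.69, 3.95 and 3.61 at 4 weeks (log2 change 2.06, SE 0.52, adjusted p = 0.039), with no overlap. Of its 10 other probe sets, all near background at 4 weeks, 1 differed by 5.91 and another by 2.49, and the rest by -0.01 to 0.16. The call was lost without any of 20 weeks replicates 3, 4 and 5 and 4 weeks replicates 1, 2 and 4 (adjusted p = 0.0647 to 0.139). Pigr, the receptor that carries dimeric IgA across the epithelium, had 9.70, 12.54, 12.58, 11.99 and 12.24 at 20 weeks, against 9.57, 8.93, 10.21 and 11.45 at 4 weeks (log2 change 1.77, SE 0.46, adjusted p = 0.044). Replicate 1 alone made its groups overlap, and without it the change was 2.30 (adjusted p = 0.00018). The Pigr call failed without 20 weeks replicates 2, 3, 4 or 5 or 4 weeks replicates 1, 2 or 3 (0.0508 to 0.185). Of the 8 immunoglobulin and plasma cell genes kept, these 4 (Igha, Jchain, Ighm and Pigr) were called higher and none lower, with a median change of 1.25 over the list and 0.01 over all genes. Xbp1, a regulator of secretory cells, was not called at 11.87 at 20 weeks and 11.93 at 4 weeks.

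Of the genes that show peptides to helper T cells, 4 of 7 kept rose at 20 weeks. MHC class II molecules are pairs of an alpha and a beta chain, loaded with peptide after cathepsin S has trimmed the invariant chain Cd74, and are made mainly by macrophages, dendritic cells and B cells. H2-Ab1, a beta chain, had 6.81, 8.67, 8.68, 9.0 and 9.80 at 20 weeks, against 6.05, 5.25, 5.30 and 5.44 at 4 weeks, an 8.47-fold rise (log2 change 3.08, SE 0.53, adjusted p = 0.0027). No 20-week array reached down to the 4-week range, and without replicate 1 the change was 3.53. A second probe set of H2-Ab1 gave a difference of 1.36 and the third 0.51. Averaged over its probe sets the change was 1.65 (adjusted p = 0.097), and without probe sets that can bind related transcripts it was 1.36 (adjusted p = 0.34).

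H2-Aa, its alpha partner, had 8.01, 11.76, 12.13, 12.14 and 12.16 at 20 weeks, against 8.42, 7.84, 8.27 and 7.46 at 4 weeks (log2 change 3.25, SE 0.67, adjusted p = 0.013). All probe sets of H2-Aa can bind related transcripts, so it could not be read without them, and its other probe sets differed by 2.28 to 4.67. H2-Eb1, the beta chain of the other class II molecule, had 4.22, 8.22, 8.87, 9.17 and 9.83 at 20 weeks, against 5.51, 4.57, 4.81 and 5.11 at 4 weeks (log2 change 3.06, SE 0.72, adjusted p = 0.030). For both genes the 4 other arrays at 20 weeks were far above the highest at 4 weeks, and 20 weeks replicate 1 lay inside or below the 4-week range. Without it the changes were 4.05 and 4.02 (adjusted p = 9.2e-06 and 2.6e-06). With it, the H2-Aa call was lost without 4 weeks replicates 2 or 4 (0.0529 and 0.0644), and that of H2-Eb1 without 20 weeks replicates 2, 3 or 4 or 4 weeks replicates 2 or 4 (0.0556 to 0.105).

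Ctss, which encodes cathepsin S, had 7.5, 10.26, 10.90, 10.07 and 11.08 at 20 weeks, against 8.22, 7.20, 6.59 and 7.55 at 4 weeks (log2 change 2.57, SE 0.55, adjusted p = 0.015, and 0.0612 without 4 weeks replicate 2), and changed by 3.19 without replicate 1. Cd74 was not called with all arrays, at 6.25, 10.06, 10.34, 10.64 and 11.30 at 20 weeks, against 7.53, 7.15, 6.31 and 7.01 at 4 weeks (log2 change 2.71, SE 0.88, adjusted p = 0.11), and was called without 20 weeks replicate 1 (3.58, adjusted p = 0.0047). Of 7 class II presentation genes kept, 4 were called higher with all arrays and 5 without replicate 1, with medians of 2.71 and 3.53. H2-DMb2, part of the peptide loading machinery, had 4.18 at 20 weeks and 4.22 at 4 weeks and was not called. The 9 MHC class I genes kept had a median of 0.36, and none was called.

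Class II promoters carry a conserved Y box, a reverse CCAAT element bound by a general activator beside the sites where the class II activator complex assembles. Promoters of the alpha chain H2-Aa and the beta chain H2-Eb1 are shown because they alone, of the genes searched, held the Y box letters marked below. H2-Ab1 had no entry in the promoter table and was not searched. The sequences run from 250 bases before to 50 bases after the gene's start, from RefSeq on build GRCm38.p6, with H2-Aa at chr17:34287774-34288073 on the minus strand and H2-Eb1 at chr17:34305617-34305916 on the plus strand. Capitals mark the Y box letters CTGATTGG.
H2-Aa: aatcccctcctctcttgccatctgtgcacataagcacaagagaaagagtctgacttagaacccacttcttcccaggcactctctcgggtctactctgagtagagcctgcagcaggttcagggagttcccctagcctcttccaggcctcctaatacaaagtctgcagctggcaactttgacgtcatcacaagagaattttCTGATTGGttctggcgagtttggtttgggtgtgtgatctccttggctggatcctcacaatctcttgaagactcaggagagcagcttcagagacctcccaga
H2-Eb1: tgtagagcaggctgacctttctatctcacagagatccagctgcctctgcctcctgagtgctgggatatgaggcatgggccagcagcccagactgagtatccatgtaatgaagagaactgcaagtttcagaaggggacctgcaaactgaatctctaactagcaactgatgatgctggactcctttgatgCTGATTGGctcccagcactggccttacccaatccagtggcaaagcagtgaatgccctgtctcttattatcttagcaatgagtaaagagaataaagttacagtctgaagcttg
The letters begin 51 bases before the start of H2-Aa and 62 bases before that of H2-Eb1, on the gene's own strand in both. Searched on both strands, the same letters are in 1346 of 32851 RefSeq promoters of this length (4.1%). They are not in those of the class II genes H2-DMa, H2-DMb1 and H2-DMb2, nor in those of Ctss, C1qb, C1qc and Ltf. A match describes the sequence and is no measure of binding.

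Of 17 macrophage genes kept 4 rose at 20 weeks, as did 2 of the 3 C1q subunits of complement, which tissue macrophages make. C1q is the recognition molecule of the classical complement pathway and is built from the products of C1qa, C1qb and C1qc. C1qb had 7.89, 10.50, 11.04, 10.27 and 11.43 at 20 weeks, against 8.34, 7.52, 6.80 and 7.02 at 4 weeks (log2 change 2.81, SE 0.49, adjusted p = 0.0035). C1qc had 2.22, 5.55, 6.14, 6.33 and 6.27 at 20 weeks, against 2.92, 2.62, 2.18 and 3.09 at 4 weeks, where it was near background (log2 change 2.60, SE 0.57, adjusted p = 0.020). C1qa had 2.74, 6.31, 6.83, 6.93 and 8.62 at 20 weeks, against 4.43, 4.62, 3.21 and 5.23 at 4 weeks, and was not called (1.92, SE 0.70, adjusted p = 0.17). For all 3 subunits 20 weeks replicate 1 lay within or below the 4-week range and the other 20-week arrays lay above it. Without replicate 1 the changes were 3.39, 3.37 and 2.80 for C1qb, C1qc and C1qa, all called (adjusted p of 2.1e-06, 7.1e-07 and 0.00053). C1qc lost its call without 20 weeks replicates 3 or 4 or 4 weeks replicate 2 (0.0568 to 0.0709).

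All 13 complement genes kept had a positive difference, and 2 of them, C1qb and C1qc, were called, with a list median of 0.83. Without replicate 1 there were 6 calls, C1qa, C2, C3ar1 and Serping1 in addition. C3ar1, the receptor for the complement fragment C3a, had 3.67, 4.24, 5.13, 4.55 and 4.72 at 20 weeks, against 3.47, 3.48, 3.6 and 3.35 at 4 weeks. Its groups did not overlap, and its log2 change of 0.99 missed the threshold with all arrays (adjusted p = 0.054) and passed it without replicate 1 (1.19, adjusted p = 0.0067).

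Csf1r, the receptor through which macrophages receive their survival factor, had 8.79, 10.36, 10.43, 10.60 and 10.60 at 20 weeks, against 8.11, 8.37, 8.71 and 7.35 at 4 weeks (log2 change 2.02, SE 0.41, adjusted p = 0.011, and 0.0678 without 4 weeks replicate 4). The arrays of both ages did not overlap, although replicate 1 lay just above the highest 4-week array, and without it the change was 2.37. Lyz2, the macrophage lysozyme, had 7.23, 8.94, 10.12, 10.15 and 10.94 at 20 weeks, against 7.74, 7.49, 5.73 and 7.70 at 4 weeks (log2 change 2.31, SE 0.54, adjusted p = 0.027). Tyrobp, the adaptor of activating myeloid receptors, had 4.8, 7.26, 7.89, 8.42 and 7.87 at 20 weeks, against 5.75, 5.52, 4.72 and 4.68 at 4 weeks (log2 change 2.08, SE 0.52, adjusted p = 0.037). Laptm5, a lysosomal protein of blood cells, changed by 3.29 (SE 0.76, adjusted p = 0.025), and its other probe sets differed by 0.02 to 1.06. Without probe sets that can bind related transcripts its change was 0.11 (adjusted p = 0.94). These 3 genes overlapped between the ages through replicate 1 and changed by 2.69 to 3.83 without it. Their calls were lost without several single arrays, namely 20 weeks replicates 3 or 4 or 4 weeks replicates 2, 3 or 4 for Lyz2 (0.0542 to 0.0686) and Laptm5 (0.0504 to 0.0995), and these and 20 weeks replicates 2 or 5 for Tyrobp (0.0567 to 0.157).

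Of 17 macrophage genes kept, these 4 were called higher and none lower, with a median of 0.78 and 16 positive differences. Cd68, a lysosomal marker of macrophages, and Mrc1, the mannose receptor, joined Fcer1g as calls without replicate 1. Cd68 had 2.49, 5.08, 6.08, 4.30 and 5.30 at 20 weeks, against 2.39, 2.43, 2.46 and 2.39 at 4 weeks, and Mrc1 changed by 1.35 with all arrays (adjusted p = 0.23) and by 1.83 without replicate 1 (0.028). Fgl2, a fibrinogen-like product of macrophages and T cells, had 5.97, 9.93, 9.66, 9.08 and 10 at 20 weeks, against 5.76, 5.09, 5.31 and 5.41 at 4 weeks, an 11.6-fold rise without overlap (log2 change 3.54, SE 0.52, adjusted p = 0.00063), with 4.28 without replicate 1.

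**Figure D2:**
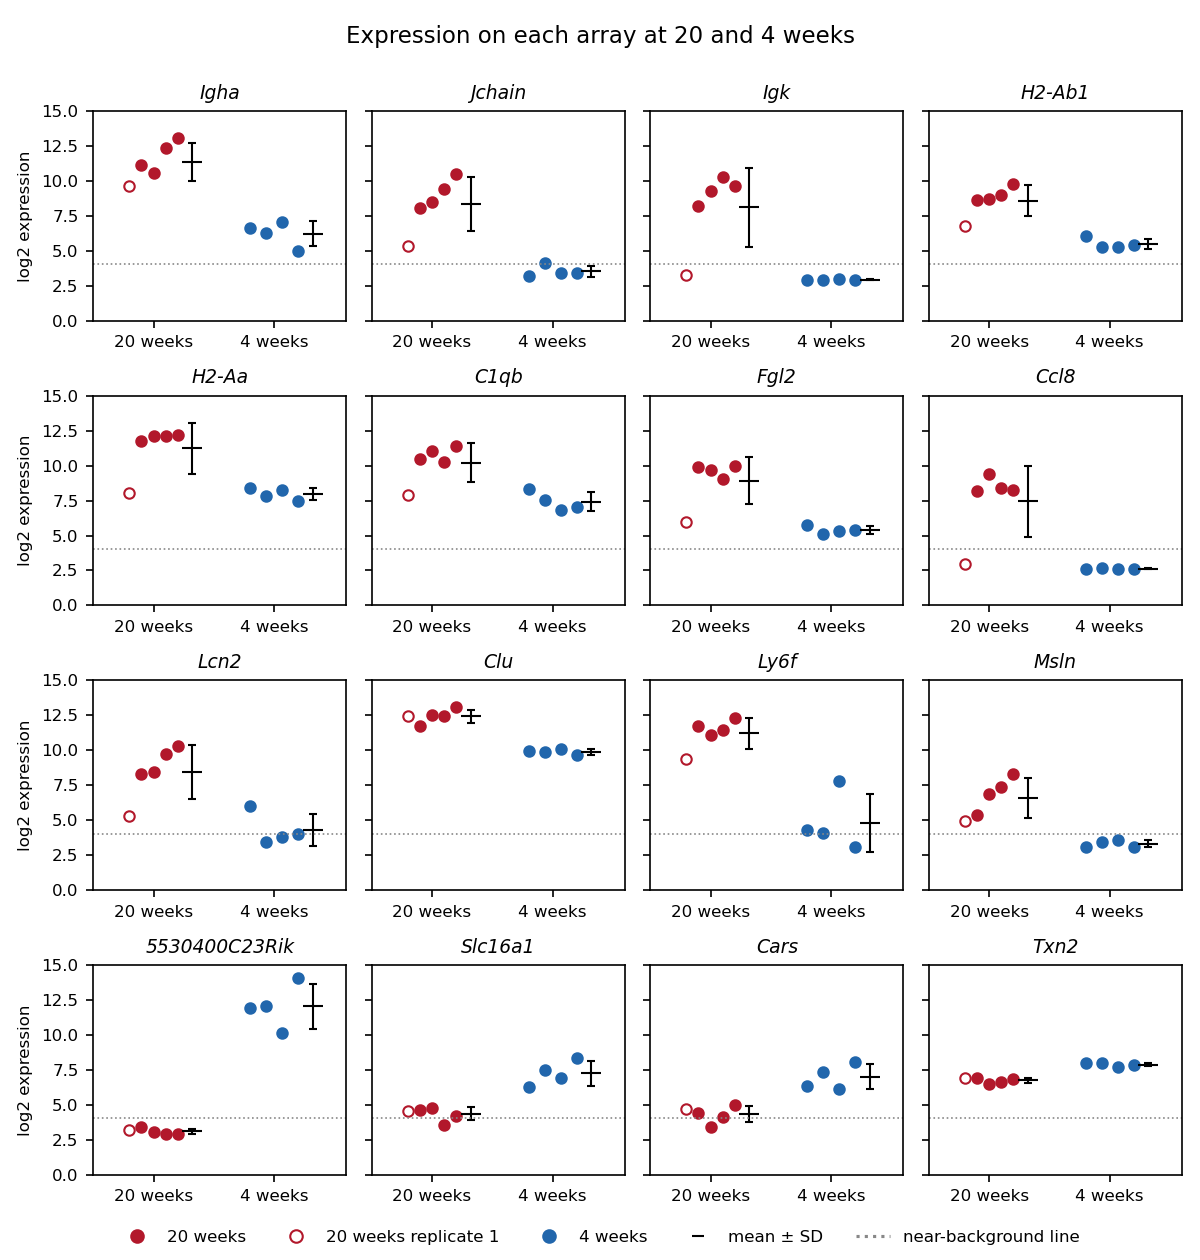
Log2 expression (vertical axis) of 16 genes on each of the 5 arrays at 20 weeks (red, left) and the 4 arrays at 4 weeks (blue, right), with the mean ± SD beside each group in black and the near-background level of 4.04 as a dotted line. The open circle is 20 weeks replicate 1, which lies at or near the 4-week values for Igk, H2-Aa, C1qb, Fgl2 and Ccl8 and among the other 20-week arrays for Clu, 5530400C23Rik, Slc16a1, Cars and Txn2.

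Chemokines recruit leukocytes along gradients. Ccl8, a ligand that attracts monocytes and some T cells, had 2.96, 8.18, 9.43, 8.43 and 8.25 at 20 weeks, against 2.58, 2.66, 2.61 and 2.60 at 4 weeks (log2 change 4.84, SE 0.91, adjusted p = 0.0067). Ccl9, a monocyte attractant of mice, had 8.56, 10.58, 11.54, 10.76 and 11.19 at 20 weeks, against 6.33, 7.10, 7.51 and 7.35 at 4 weeks (log2 change 3.45, SE 0.53, adjusted p = 0.00095). Neither gene overlapped between the ages, but Ccl8 on replicate 1 lay just above the highest 4-week array and on the 4 other 20-week arrays far above it. Without replicate 1 Ccl8, near background at 4 weeks, changed by 5.96 and Ccl9 by 3.94. They were the 2 calls among 14 inflammatory chemokine genes kept, whose median was 0.40. Ccl6 and Cxcl12 were called in addition without replicate 1. Cxcl9 and Cxcl10, chemokines that interferon gamma induces, differed by 0.30 and 0.36 and were not called.

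The few T cell, B cell and NK genes kept gave no calls, beside 2.21% called of all genes tested. So few genes at that share cannot show whether these cells differed. Of the 17 genes listed for T cells, 5 were kept, and their mean level lay at 3.29 to 3.82 on the arrays at 20 weeks and 3.37 to 3.59 at 4 weeks, all near background. B cell genes (2 of 11 kept) ranged from 3.80 to 4.46 per array at 20 weeks and from 3.54 to 3.89 at 4 weeks. NK and cytotoxic genes (2 of 12 kept) lay at 3.50 to 3.93 and 3.27 to 3.39 in the same order, and neither the 5 dendritic cell nor the 2 neutrophil genes kept were called. Il2, Ctla4, Slc11a1 and Trim21, candidates from the autoimmunity regions or from Sjögren's syndrome, lay between 2.84 and 4.04 on all 9 arrays, and Il21, Icos and Chrm3 failed the filter on low values. Interferon genes were not called with all arrays, with medians of 0.18 over 18 type I and 0.59 over 10 interferon gamma GTPase genes. Without replicate 1, Oas1a, Rtp4 and Ifih1 of the first list and Gbp2 and Iigp1 of the second were called higher.

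Of 11 genes for mucosal antimicrobial products kept, 4 rose at 20 weeks. Clu, which encodes clusterin, a chaperone found in tears and other secretions, had 12.43, 11.74, 12.54, 12.45 and 13.07 at 20 weeks, against 9.92, 9.90, 10.10 and 9.63 at 4 weeks, a 5.90-fold rise (log2 change 2.56, SE 0.28, adjusted p = 1.3e-05). It stood well clear of the 4-week arrays on every 20-week array, replicate 1 included, and changed by 2.56 without that array too, and its 3 other probe sets differed by 2.89 to 3.22. Clu was the only higher gene that was called under every one of the 26 settings tried.

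Lcn2, lipocalin 2, an iron-sequestering antibacterial protein of epithelium and neutrophils, had 5.32, 8.29, 8.48, 9.73 and 10.34 at 20 weeks, against 5.99, 3.43, 3.76 and 4.00 at 4 weeks (log2 change 4.14, SE 0.73, adjusted p = 0.0035). Lyz1, the secreted P lysozyme, had 9.09, 11.86, 12.53, 12.39 and 12.42 at 20 weeks, against 9.24, 8.04, 7.29 and 7.87 at 4 weeks (log2 change 3.55, SE 0.54, adjusted p = 0.00089). Replicate 1 overlapped with the highest 4-week array, 4 weeks replicate 1, for both genes. The probe set of Lyz1 can bind related transcripts. Another such probe set of Lyz1 differed by 3.42, and the remaining one, near background at both ages, by 0.07. Ltf, the tear protein lactoferrin, had 11.10, 12.84, 13.31, 13.24 and 13.86 at 20 weeks, against 9.71, 11.38, 10.92 and 11.92 at 4 weeks (log2 change 1.88, SE 0.42, adjusted p = 0.022), and lost its call without 20 weeks replicates 3 or 4 or 4 weeks replicate 1 (0.0593 to 0.079). Cst3, cystatin C, a secreted inhibitor of cathepsins, had 6.65, 9.97, 10.67, 10.09 and 10.31 at 20 weeks, against 7.6, 6.21, 6.55 and 6.28 at 4 weeks (log2 change 2.88, SE 0.53, adjusted p = 0.0053). Ltf and Cst3 also overlapped through replicate 1. Without that array Lcn2 changed by 4.92, Lyz1 by 4.19, Ltf by 2.33 and Cst3 by 3.6. Clu, Lcn2, Lyz1 and Ltf were the calls of the mucosal list, whose median was 0.63. Lpo, lactoperoxidase, and Slpi, a protease inhibitor of mucosal fluids, were not called, at differences of -0.67 and 0.05.

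Several further genes were among the largest rises and have no place in these immune lists. Ly6f, of the Ly6 family of membrane-anchored surface proteins, had 9.35, 11.75, 11.13, 11.46 and 12.33 at 20 weeks, against 4.32, 4.05, 7.82 and 3.09 at 4 weeks, an 83.4-fold rise (log2 change 6.38, SE 0.65, adjusted p = 6e-06). Cyp4a12a, a male-specific cytochrome P450 of mouse kidney that hydroxylates fatty acids, had 7.34, 9.75, 7.87, 9.99 and 10.75 at 20 weeks, against 4.52, 4.67, 4.78 and 4.25 at 4 weeks (log2 change 4.59, SE 0.50, adjusted p = 1.3e-05). Neither overlapped, and Ly6f varied most at 4 weeks, where replicate 3 was far above the others. Without 20 weeks replicate 1 they changed by 6.85 and 5.04.

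Msln, which encodes mesothelin, a surface protein of mesothelium and some tumours, had 4.95, 5.37, 6.86, 7.38 and 8.33 at 20 weeks, against 3.07, 3.47, 3.59 and 3.11 at 4 weeks (log2 change 3.27, SE 0.66, adjusted p = 0.011). Mug1, a broad protease inhibitor of mouse plasma, had 3.31, 7.88, 7.40, 8.02 and 8.13 at 20 weeks, against 2.58, 2.96, 2.79 and 2.65 at 4 weeks (log2 change 4.20, SE 0.71, adjusted p = 0.0027). Ntmt1, an enzyme that methylates protein ends, had 6.03, 8.69, 6.99, 6.92 and 7.87 at 20 weeks, against 4.20, 4.18, 4.07 and 3.65 at 4 weeks (log2 change 3.28, SE 0.63, adjusted p = 0.0080). All 3 lay wholly above their 4-week values, which were near background on average, and changed by 3.67, 5.11 and 3.59 without 20 weeks replicate 1. The second probe set of Ntmt1 differed by -0.45, so that its rise holds for 1 of 2 probe sets.

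B4galnt2, a glycosyltransferase that completes the Sda blood group sugar, had 3.13, 8.28, 9.10, 9.44 and 10.03 at 20 weeks, against 2.60, 2.54, 2.56 and 2.94 at 4 weeks (log2 change 5.34, SE 1.27, adjusted p = 0.030), and 6.56 without 20 weeks replicate 1 (adjusted p = 0.00059). Pgf, placental growth factor, a ligand of the vascular receptor Flt1, had 3.85, 5.55, 5.52, 6.54 and 8.49 at 20 weeks, against 3.05, 3.05, 3.04 and 3.05 at 4 weeks (log2 change 2.94, SE 0.75, adjusted p = 0.041). Sbsn, suprabasin, a protein of keratinising epithelium, had 6.94 to 8.55 at 20 weeks, against 4.33 to 5.35 at 4 weeks (log2 change 2.63, SE 0.56, adjusted p = 0.015). None of the 3 overlapped. B4galnt2 and Pgf were near background at 4 weeks, and without 20 weeks replicate 1 Pgf and Sbsn changed by 3.48 and 2.76. The B4galnt2 call was lost without 20 weeks replicates 2, 3 or 4 or 4 weeks replicates 1, 2 or 4 (0.0556 to 0.0902), that of Pgf without any single array but 20 weeks replicate 1 (0.0543 to 0.133), and that of Sbsn without 4 weeks replicates 2 or 4 (0.053 and 0.0692).

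The largest difference of all was a fall. 5530400C23Rik, a gene whose function is not given in the files, had 3.17, 3.39, 3.06, 2.89 and 2.93 at 20 weeks, against 11.92, 12.07, 10.12 and 14.05 at 4 weeks (log2 change -8.95, SE 0.40, adjusted p = 1e-12). It was near background on every array at 20 weeks and among the strong signals at 4 weeks, so the 496-fold difference is a lower bound. Slc16a12, a transporter of creatine in the monocarboxylate transporter family, had 4.90, 4.70, 4.69, 4.72 and 4.56 at 20 weeks, against 6.00, 6.47, 6.13 and 6.38 at 4 weeks (log2 change -1.53, SE 0.16, adjusted p = 6e-06). The change of Slc16a12 is smaller than most named here, and its arrays lay close together within each age. Both genes were called under every one of the 26 settings.

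Slc16a1, the transporter MCT1 for lactate and pyruvate, had 4.56, 4.63, 4.78, 3.58 and 4.23 at 20 weeks, against 6.29, 7.47, 6.90 and 8.36 at 4 weeks (log2 change -2.90, SE 0.42, adjusted p = 0.00063). Cyp39a1, a cytochrome P450 of oxysterol breakdown, had 2.75, 2.57, 3.95, 4.06 and 3.74 at 20 weeks, against 6.38, 7.46, 4.60 and 7.56 at 4 weeks (log2 change -3.09, SE 0.58, adjusted p = 0.0067). Fdft1, squalene synthase, the committed step of sterol synthesis, had 4.10, 4.10, 3.73, 3.70 and 3.65 at 20 weeks, against 5.88, 6.92, 4.39 and 6.36 at 4 weeks (log2 change -2.03, SE 0.37, adjusted p = 0.0047). None of the 3 overlapped, and for Cyp39a1 and Fdft1 4 weeks replicate 3 was by far the lowest of its age. Both were near background at 20 weeks on average, so their changes are lower bounds. Of 14 cholesterol synthesis and LDL receptor genes kept, Fdft1 was the single call with all arrays, with a list median of -0.38. Without 20 weeks replicate 1, 3 genes of this list were called lower, with a median of -0.37.

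A regulator of growth, Plagl1, and 2 matrix genes, Timp3 and Col1a1, fell as single genes. Plagl1, an imprinted zinc finger regulator of early growth, had 4.48, 4.67, 4.70, 2.73 and 4.63 at 20 weeks, against 7.49, 6.91, 6.03 and 6.65 at 4 weeks (log2 change -2.53, SE 0.43, adjusted p = 0.0027). Its probe set can bind related transcripts, and the other 2 probe sets, both near background, differed by 0.02 and 0.00, so the fall holds for 1 of 3. It was the single call among 9 imprinted growth genes kept. Timp3, a matrix-bound inhibitor of metalloproteinases, had 2.58, 3.12, 3.95, 3.79 and 4.27 at 20 weeks, against 5.60, 5.97, 4.74 and 6.21 at 4 weeks (log2 change -2.09, SE 0.38, adjusted p = 0.0051). At 20 weeks it was near background on average. Its 3 other probe sets were lower by 0.53, 0.91 and 1.76 log2 units.

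Col1a1, a chain of type I collagen, had 5.15, 4.75, 4.82, 5.24 and 4.85 at 20 weeks, against 6.77, 5.94, 5.38 and 5.99 at 4 weeks (log2 change -1.06, SE 0.23, adjusted p = 0.016, and 0.0529 and 0.056 without 4 weeks replicates 1 and 4). It did not overlap, and was the single call among 18 collagen and matrix genes kept, of which 16 had a negative difference with all arrays (median -0.59) and 12 without replicate 1 (median -0.27). Trim24, a nuclear receptor cofactor, had 4.08, 3.31, 3.27, 3.59 and 4.83 at 20 weeks, against 7.01, 6.42, 5.30 and 6.37 at 4 weeks (log2 change -2.46, SE 0.34, adjusted p = 0.00038). Arg2, the mitochondrial arginase, had 4.32, 4.21, 5.03, 5.71 and 4.26 at 20 weeks, against 6.24, 7.62, 7.13 and 7.31 at 4 weeks (log2 change -2.37, SE 0.41, adjusted p = 0.0034). Every 20-week array was below every 4-week array for both, and Trim24 was near background at 20 weeks on average. Without 20 weeks replicate 1 the falls of the genes from 5530400C23Rik to Arg2 differed little from these values, with Timp3 at -1.85, and all were called.

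Genes of protein synthesis, folding and export were lower for a limited number of members. Cars, the cysteinyl-tRNA synthetase, which charges tRNA for translation, had 4.72, 4.38, 3.44, 4.15 and 5.0 at 20 weeks, against 6.37, 7.35, 6.16 and 8.09 at 4 weeks, a 6.29-fold fall (log2 change -2.65, SE 0.39, adjusted p = 0.00063). Uso1, the tether p115 that docks vesicles between the endoplasmic reticulum and the Golgi, had 5.83, 8.03, 7.90, 8.19 and 8.77 at 20 weeks, against 10.47, 10.62, 9.26 and 11.12 at 4 weeks (log2 change -2.62, SE 0.51, adjusted p = 0.0082). Both were without overlap, and neither rested on replicate 1 (changes of -2.75 and -2.15 without it, adjusted p = 0.00022 and 0.0047).

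Rchy1, an E3 ubiquitin ligase that marks p53 for breakdown, had 4.05, 5.94, 5.68, 4.89 and 6.32 at 20 weeks, against 8.05, 7.66, 6.79 and 8.13 at 4 weeks (log2 change -2.28, SE 0.38, adjusted p = 0.0024). Txn2, the mitochondrial thioredoxin, had 6.92, 6.91, 6.52, 6.62 and 6.82 at 20 weeks, against 7.99, 7.97, 7.70 and 7.87 at 4 weeks (log2 change -1.13, SE 0.16, adjusted p = 0.00041). Both stood without overlap. After quantile normalization the change of Txn2 was -0.72 and not called (adjusted p = 0.29).

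Other members of these pathways passed with less margin. Pdia3, a disulfide isomerase of glycoprotein folding, had 6.24, 6.92, 8.15, 8.21 and 9.63 at 20 weeks, against 9.93, 11.13, 9.61 and 12.10 at 4 weeks (log2 change -2.87, SE 0.63, adjusted p = 0.020). Sdhc, an anchor subunit of mitochondrial complex II, had 3.95, 5.93, 5.61, 6.38 and 7.55 at 20 weeks, against 9.14, 8.20, 6.98 and 8.89 at 4 weeks (log2 change -2.42, SE 0.58, adjusted p = 0.032). Ptbp1, a repressor of alternative exons, had 4.04, 6.89, 6.97, 6.64 and 8.65 at 20 weeks, against 9.04, 9.28, 8.37 and 10.65 at 4 weeks (log2 change -2.70, SE 0.65, adjusted p = 0.032). In each the groups overlapped through 20 weeks replicate 5, the highest of its age, and replicate 1 was the lowest. On the 20- and 4-week arrays without replicate 1 the changes were smaller, at -2.47 for Pdia3, -1.94 for Sdhc and -2.05 for Ptbp1. That fit did not call them (limma adjusted p = 0.112 to 0.118), while the fit over all ages without replicate 1 still did.

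Tars and Aars, which charge threonine and alanine tRNA, Pdia6, another disulfide isomerase, Uqcrfs1, the Rieske protein of complex III, Sf3b1, a core splicing factor, Psmd4, a ubiquitin receptor of the proteasome, Nedd4, a ubiquitin ligase, Sec24d, a coat protein of export vesicles, Rpl4, a ribosomal protein, and Spdef, a secretory cell transcription factor, were called too, at changes between -2.25 for Tars and -0.93 for Aars (adjusted p between 0.028 and 0.0484). The other probe set of Aars differed by -2.93. All 13 of these genes lost their call when some single arrays were left out, most often 20 weeks replicates 2, 3 or 4 or 4 weeks replicates 1, 2 or 4, with adjusted p values of up to 0.248 (Sec24d without 4 weeks replicate 4). Aars and Sec24d also lost it without 20 weeks replicate 1 (0.0558 and 0.0623), and the change of Sf3b1 was -1.25 without that array, against -1.88 with it. On the 20- and 4-week arrays without it Tars changed by -1.84, Uqcrfs1 by -1.16 and Rpl4 by -0.94. With all arrays these changes were -2.25, -1.52 and -1.36. Spdef was at -1.04 without that array and -1.02 with it. As the mean of its probe sets Sf3b1 changed by -0.28 (adjusted p = 0.72). The second probe set of Ptbp1 of comparable level, at 8.82 at both ages, did not differ.

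For several genes with more than 1 probe set, the mean over probe sets gave another size. The calls of Pigr (1.11, adjusted p = 0.31), H2-Ab1, Nedd4 (-2.0, adjusted p = 0.073) and Sf3b1 were lost. Among rises that were still called it gave 1.32 for Igk, 1.0 for Ighm, 0.90 for Laptm5, 1.49 for Sbsn, 1.2 for Csf1r, 2.31 for Fgl2, 2.35 for Lyz1, 1.62 for B4galnt2 and 1.41 for Ntmt1. Among falls still called it gave -1.93 for Aars, -0.83 for Pdia6, -1.45 for Slc16a1, -1.33 for Cars, -0.84 for Plagl1, -0.85 for Trim24, -1.56 for Arg2, -0.98 for Fdft1, -1.32 for Timp3, -1.44 for Pdia3 and -0.86 for Ptbp1.

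The medians of the endoplasmic reticulum, translation, splicing, proteasome and mitochondrial lists lay nearer 0 without 20 weeks replicate 1. The 20 endoplasmic reticulum chaperone genes kept had a median of -1.11 with all arrays and -0.45 without replicate 1, with 18 and 15 negative differences and 2 calls in each. For 18 aminoacyl-tRNA synthetases the medians were -0.92 and -0.38 (3 and 2 calls lower), for 16 splicing factors -0.83 and -0.46 (2 and 2), for 15 ubiquitin and proteasome genes -0.70 and -0.26 (3 and 3), for 23 genes of transport between endoplasmic reticulum and Golgi -0.69 and -0.12 (1 and 0) and for 26 oxidative phosphorylation genes -0.57 and -0.03 (2 and 2). The mean level of the oxidative phosphorylation list was 6.68 on replicate 1, 9.24 or more on the other 20-week arrays, and 8.84 to 10.22 at 4 weeks. All genes kept had a median of 0.01 in both fits. No gene of these 6 lists was called higher with all arrays. Without replicate 1 there was 1 such call, in the list of transport between endoplasmic reticulum and Golgi.

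**Figure D3:**
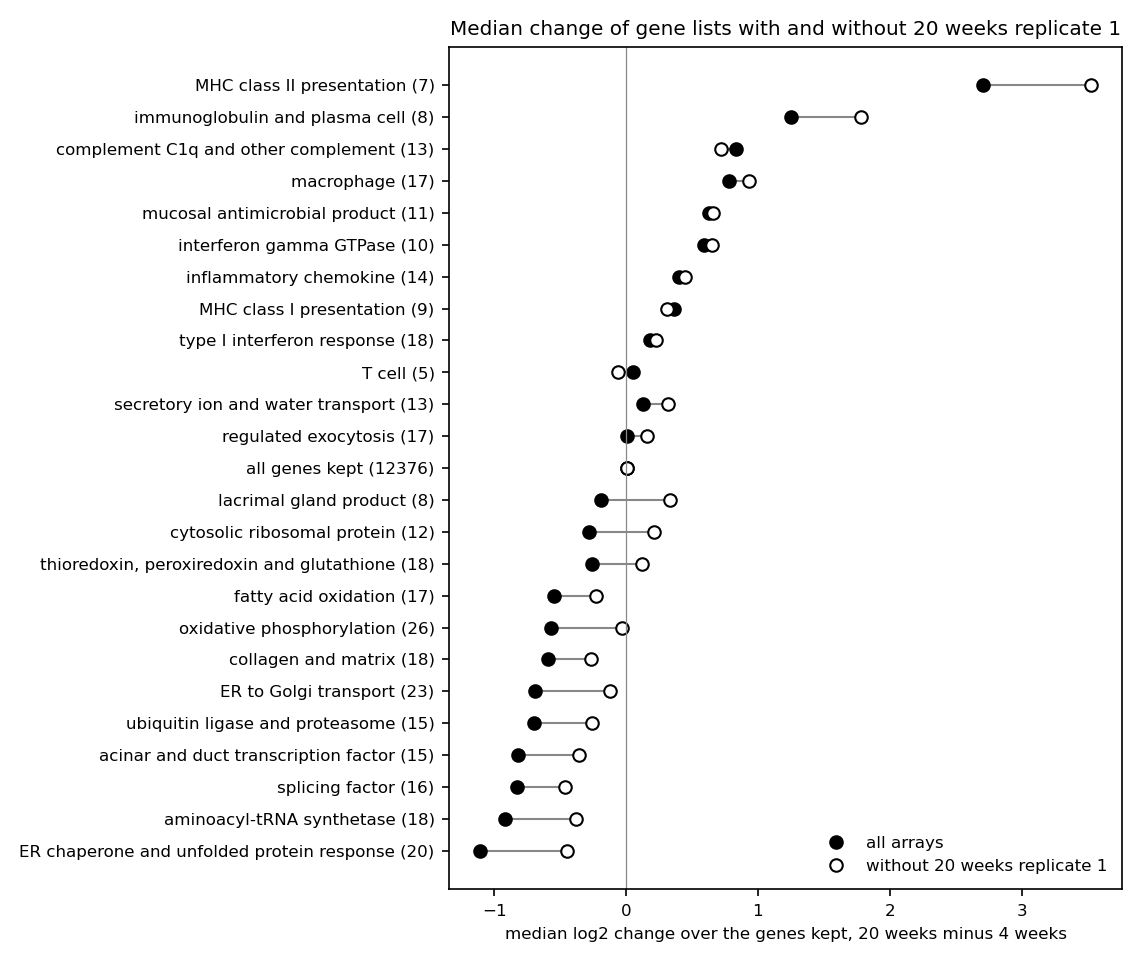
Median log2 change, 20 weeks minus 4 weeks, of gene lists and of all genes kept (number of genes kept in brackets), with all arrays (filled circles) and without 20 weeks replicate 1 (open circles). MHC class II and immunoglobulin lists lie at 2.71 and 1.25 and move further from 0 without that array, while the chaperone list at -1.11 and the oxidative phosphorylation list at -0.57 move to -0.45 and -0.03.

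Genes that carry out secretion gave few calls. Aqp5, the water channel of acinar and duct cells, had 8.09, 10.31, 10.46, 10.71 and 11.45 at 20 weeks, against 11, 10.42, 9.6 and 10.64 at 4 weeks (log2 change -0.21, SE 0.85, adjusted p = 0.95, and 0.32 without replicate 1). The ages overlapped, with replicate 1 below every other array. Stx4a, a membrane fusion protein of regulated secretion, was the single call among 17 exocytosis genes kept, with 2.91, 4.21, 5.23, 4.88 and 5.46 at 20 weeks, against 3.06, 2.79, 2.85 and 2.73 at 4 weeks (log2 change 1.68, SE 0.37, adjusted p = 0.021). Replicate 1 lay within the 4-week range, which was near background, and the other 20-week arrays above it. The call failed without 20 weeks replicates 3 or 4 or 4 weeks replicates 2 or 4 (0.0602 to 0.0825).

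Among signalling and channel genes, Gnaq, Chrm1 and Ano1 were called without 20 weeks replicate 1 and not with it. Gnaq, the G protein that couples muscarinic receptors to calcium release, had 5.57, 9.26, 9.21, 9.43 and 9.6 at 20 weeks, against 7.19, 6.57, 6.71 and 6.48 at 4 weeks (log2 change 1.88, adjusted p = 0.22, and 2.64, adjusted p = 0.013, without that array). Its other probe sets differed by -0.51 to 0.52. Chrm1, a muscarinic acetylcholine receptor, changed by 0.86 (adjusted p = 0.11) and by 1.03 without replicate 1 (0.026). Ano1, the calcium-activated chloride channel, changed by 0.77 (adjusted p = 0.54) and by 1.46 without replicate 1 (0.015). None of the 13 ion and water transport genes kept was called with all arrays (median 0.13), and of 15 acinar and duct transcription factors Spdef was the single call (median -0.82, and -0.36 without replicate 1).

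The ages between 4 and 20 weeks show when each difference appeared. A gene was counted as past the midpoint when its mean had covered more than 50% of its difference between 4 and 20 weeks. Of the 111 genes higher at 20 weeks, 47.7% were past it at 8 weeks, 62.2% at 12 weeks and 86.5% at 16 weeks. Of the 162 genes lower at 20 weeks, 19.1% were past it at 8 weeks, 25.3% at 12 weeks and 74.7% at 16 weeks. Leaving out 20 weeks replicate 1 and 16 weeks replicate 4, another array that stood apart, gave 44.1%, 58.6% and 84.7% for the rises and 19.8%, 25.9% and 74.7% for the falls. The difference between both courses was not tested. The 3' minus 5' actin signal averaged 2.90 at 4 weeks, 2.63 at 8, 3.69 at 12, 4.56 at 16 and 3.89 at 20 weeks, and its part in the course was not tested. With this signal as a covariate 56 genes were lower and 120 higher, against 162 and 111 without it, and 5530400C23Rik, Slc16a12, Slc16a1, Cars, Uso1, Rchy1 and Txn2 were still called. Pdia3, Sdhc, Ptbp1, Tars, Uqcrfs1, Pdia6, Aars, Nedd4, Psmd4, Sf3b1, Sec24d and Rpl4 were not (adjusted p of 0.052 to 0.115), nor was the rise of Ighm (2.14, adjusted p = 0.063). Their changes kept their direction, at -2.16 for Pdia3, -2.01 for Sdhc, -1.99 for Ptbp1, -1.82 for Tars and -1.29 for Uqcrfs1.

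Early changes came with the step to 8 weeks. Ly6f averaged 4.82 at 4 weeks, 11.87 at 8, 11.99 at 12, 11.67 at 16 and 11.2 at 20 weeks, and H2-Ab1 averaged 5.51, 9.02, 9.38, 8.01 and 8.59 over the same ages. On the falling side 5530400C23Rik was at 12.04 at 4 weeks and between 2.80 and 3.09 at each later age, Slc16a12 at 6.25 and then 4.35 to 4.72, and Plagl1 at 6.77 and then 4.24 to 4.38. Fdft1 followed the same course, at 5.89 and then 3.86 to 4.11. The means of these falling genes changed little after 8 weeks.

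Later changes came in steps. Jchain averaged 3.55, 5.57, 8.05, 8.28 and 8.37 at 4, 8, 12, 16 and 20 weeks, with most of its rise by 12 weeks, when leukocytes enter the gland in the study's description. Msln averaged 3.31, 3.25, 4.55, 4.93 and 6.58 over these ages. Cars averaged 6.99, 6.77, 5.91, 4.23 and 4.34, and Slc16a1 averaged 7.25, 7.09, 6.56, 5.40 and 4.36. Txn2 stood at 7.88, 8.21 and 8.14 up to 12 weeks and at 6.94 and 6.76 at 16 and 20 weeks. With all arrays Uso1, Rchy1, Sdhc and Ptbp1 had their lowest age means at 20 weeks, where replicate 1 was the lowest array for each. Each of these genes had a higher mean at 12 weeks than at 16 weeks.

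**Figure D4:**
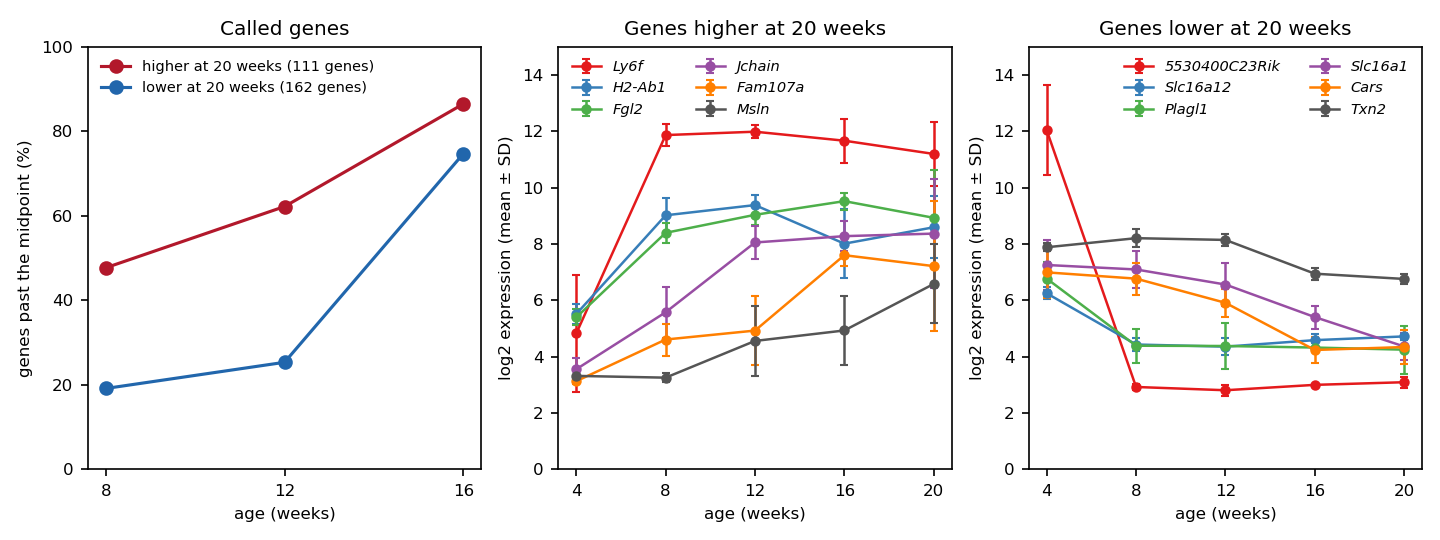
Left, percent of the genes called higher (red) or lower (blue) at 20 weeks that had passed the midpoint of their change at 8, 12 and 16 weeks of age. Middle and right, mean ± SD of log2 expression by age for 6 genes of each direction (n = 4 to 6 arrays per age), with Ly6f and 5530400C23Rik at their later level from 8 weeks and Cars and Txn2 lowest at 16 and 20 weeks.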

How the data were processed

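Total RNA of lacrimal glands was labelled as biotinylated cRNA and hybridised to Affymetrix arrays, per the labels' protocols. The deposited values are log2 expression per probe set, background-corrected and normalized by the authors. Per the submitters' processing notes RMA and GCRMA were used (their roles are not stated). Of 45101 probe sets, 34958 name 1 gene symbol in the platform annotation, 932 name several and 9211 are not listed. Each gene was read from its probe set of highest mean log2 value among those naming only that gene, which gave 18193 genes. The 12376 genes above the array median on at least 4 arrays were tested.

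limma 3.58.1 (R 4.3.3) fitted a mean per age over all 26 arrays, with the contrast 20 weeks minus 4 weeks and Benjamini-Hochberg adjustment over all genes tested. All ages thus shared 1 estimate of the spread. A gene was called at an adjusted p under 0.05. Array measures were compared with exact permutation tests. The number of arrays limits the precision. The fit was tested on simulated data.

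The alternatives were other normalizations, filters, probe set rules, covariates, array weights and left-out arrays, and 2 of them were chosen after seeing the data. Named genes were the 15 highest and 15 lowest calls without overlap between the ages, up to 5 members of each of 56 gene lists by smallest p, and fixed candidates, and not every one is described. The genes and lists were chosen with earlier results of these data known. Promoter sequences are from RefSeq (GRCm38.p6).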

Additional observations from a re-analysis of the deposited data

Results flagged for a closer look

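Among genes picked for this text, a single array held most values that stood far from the others of their age. The 156 groups of values tested were such genes and 3 array measures, each at 20 and at 4 weeks. In 30 groups an array was set apart by a gap that was large against the group's whole range (Dixon's criterion). In 25 of the 30 it was 20 weeks replicate 1, at the low end. Some of these genes are described because they were called only without that array, and genes on 1 array are not independent. The criterion's chance rate of about 1 in 20 groups is therefore no yardstick for these counts. The SD of log2 values on that array was 1.36. Among immune genes it was lowest for Igkv8-30 at 6.37, Pigr at 9.70, H2-Aa at 8.01, H2-Eb1 at 4.22, Ctss at 7.5, Cd74 at 6.25, C1qc at 2.22, Csf1r at 8.79, Fgl2 at 5.97, Ccl8 at 2.96 and Ptprc at 3.16. Among secreted and other products it was lowest for Lyz1 at 9.09, Cst3 at 6.65, B4galnt2 at 3.13, Mug1 at 3.31, Retnla at 3.70, F5 at 6.15 and Fam107a at 3.21. Lipid genes on this array were low as well, with Lpl at 3.11, Srebf1 at 2.56 and Scd1 at 7.66, and so were the signalling gene Gnaq at 5.57, the channel Ano1 at 6.39 and the splicing factor Sf3b1 at 4.52.

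The remaining values lay on other arrays. On 4 weeks replicate 3 Lyz2 was lowest of its age at 5.73, as were Pdia6 at 6.58 and Psmd4 at 6.36. B4galnt2 was highest of its age on 4 weeks replicate 4 at 2.94, which is near background. Plagl1 was lowest of its age on 20 weeks replicate 4 at 2.73.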

How the results depend on the processing

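The number of genes called, 273 with 111 higher and 162 lower, changed with most settings. Calls numbered 852 (394 higher, 458 lower) after quantile normalization, 178 (75, 103) with arrays centred on their medians, 163 (76, 87) without the filter, 2706 (1391, 1315) with array weights, 4 (1, 3) on the 9 arrays alone, 1091 (528, 563) with array spread as a covariate, 176 (120, 56) with the actin covariate, 168 (78, 90) with salivary and adipose covariates, and 1021 (720, 301) without both arrays that stand apart. The settings chosen after seeing the data gave 498 (421, 77) on the 20- and 4-week arrays without 20 weeks replicate 1, and 1479 (772, 707) with array spread as a covariate and that array left out. Leaving out 1 array gave 73 to 722 calls, 38 to 515 higher and 33 to 311 lower. Of the 628 list genes kept, 49 were called, beside 273 of all 12376 genes tested (2.21%). The lists were chosen with earlier results known, so these counts are no test of their members. Calls of list genes numbered 89 after quantile normalization, 200 with array weights, 2 on the 9 arrays alone and 112 with array spread as a covariate. They numbered 116 without both arrays that stand apart and 22 to 81 with 1 array left out. With array spread as a covariate and 20 weeks replicate 1 left out there were 136. The cause of these shifts was not tested. The share of higher calls, 40.7% with all arrays, was 46.2% after quantile normalization, 42.1% after median centring, 68.2% with the actin covariate, 71.3% without 20 weeks replicate 1, 23.2% without 20 weeks replicate 5, 25.3% without 4 weeks replicate 3 and 84.5% on the 20- and 4-week arrays without 20 weeks replicate 1.

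Plagl1 reversed to 0.0178 without probe sets that can bind related transcripts. Aqp5, not called, reversed to 0.0376 after quantile normalization, 0.0218 with array weights, 0.272 with the spread covariate, 0.449 with the actin covariate and 0.317 without 20 weeks replicate 1, without both arrays that stand apart, and on the 20- and 4-week arrays without replicate 1. With 1 array left out its difference ranged from -0.521 to 0.317. The difference in array SD, -0.0843, ranged from -0.147 to 0.0438, reversed without 20 weeks replicate 1. With the replicate number as a block 165 genes were called (57 higher, 108 lower). Deviations of same-numbered arrays correlated at -0.26, -0.12, -0.27 and 0.10. So few arrays cannot show whether the numbers pair the samples, and the sample titles do not say. Signals near background limit 42 of the 111 rises and 32 of the 162 falls to lower bounds.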

Other observations

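Further genes with large rises, named after their values were seen, were of varied function. Ptprc, the leukocyte common antigen CD45, had 3.16, 6.13, 7.05, 6.72 and 7.34 at 20 weeks, against 3.19, 3.04, 2.24 and 2.98 at 4 weeks (log2 change 3.22, SE 0.65, limma adjusted p = 0.011). Retnla, a secreted protein of alternatively activated macrophages in mice, had 3.70, 6.74, 7.82, 7.62 and 6.86 at 20 weeks, against 3.77, 2.69, 2.91 and 2.83 at 4 weeks (log2 change 3.50, SE 0.63, limma adjusted p = 0.0044). F5, coagulation factor V, had 6.15, 10.29, 10.74, 10.21 and 10.21 at 20 weeks, against 4.68, 5.99, 6.26 and 6.36 at 4 weeks (log2 change 3.70, SE 0.71, limma adjusted p = 0.0077). In each of them 20 weeks replicate 1 lay within the 4-week range and the other 20-week arrays above it. Ptprc and Retnla were near background at 4 weeks, so their changes are lower bounds, as is that of Fam107a. Fam107a changed by 4.09 (SE 0.79, limma adjusted p = 0.0080), with the same overlap. As the mean of their probe sets the changes of Fam107a and Ptprc were 1.72 and 1.6.

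These lipid genes were called without 20 weeks replicate 1 and not with all arrays. Lpl, the lipoprotein lipase of fat tissue, had 3.11, 8.29, 9.0, 8.77 and 8.58 at 20 weeks, against 7.40, 5.97, 5.35 and 5.25 at 4 weeks (log2 change 1.56, limma adjusted p = 0.40, and 2.67, adjusted p = 0.0026, without that array). Scd1, a desaturase of fatty acid synthesis, had 7.66, 11.15, 10.98, 10.53 and 10.73 at 20 weeks, against 8.33, 8.4, 9.44 and 9.71 at 4 weeks (log2 change 1.24, limma adjusted p = 0.24, and 1.87, adjusted p = 0.0015, without that array). Srebf1, a regulator of lipid synthesis, changed by 0.84 with all arrays and by 1.95 without replicate 1 (limma adjusted p = 0.69 and 0.017). Fat lies around the gland, and the 5 adipose genes kept had a median of 0.65 with all arrays and 0.80 without replicate 1. Lpl is itself 1 of these 5, and none was called with all arrays. The others differed by 1.03 for Car3, 0.65 for Adipoq, 0.14 for Fabp4 and 0.01 for Cidec. Adipoq and Cidec were near background at both ages. Whether the amount of fat in the samples differed was not tested.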
